A study of Homo sapiens with 8 samples.

Results

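Panc1 cells are an established human line from a pancreatic ductal adenocarcinoma. The state described here differs from control siRNA culture at 21% oxygen in 2 ways at once. SF3B1 was depleted by siRNA, and oxygen was lowered to 1%. The comparison set 3 libraries of siSF3B1 cells kept at 1% oxygen for 8 hours (siSF3B1 hypoxic) against 2 libraries of cells given a control siRNA at 21% oxygen (siCtrl normoxic). A further 3 libraries of control siRNA cells at 1% oxygen (siCtrl hypoxic) were used to say which genes low oxygen alone moved. The labels state the 8 hours for the siSF3B1 cells, and whether the siCtrl hypoxic cells had the same time is not stated. All 8 libraries are total RNA of the same line, and none of the groups used here holds siSF3B1 cells at 21% oxygen. A difference between siSF3B1 hypoxic and siCtrl normoxic cells that siCtrl hypoxic cells lack can therefore need low oxygen or not, and these cannot be told apart. Members were the genes with a mean above 0 log2 CPM (log2 of counts per 1e6 reads) over all 8 libraries, 13112 of 15176 genes listed. The gene just inside that limit averaged 0.00039 and the gene just outside -0.00025 log2 CPM.

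The transcriptional answer to low oxygen rests on the hypoxia-inducible factors, pairs of an alpha subunit (HIF1A or EPAS1) and a beta subunit (ARNT) that bind the core letters RCGTG near their target genes. Prolyl hydroxylases of the EGLN family mark the alpha subunits for destruction by VHL while oxygen is present, and HIF targets in carcinoma cells include genes of glucose uptake, glycolysis, lactate export, mitophagy and angiogenesis. SF3B1 is the largest subunit of the SF3b complex in the U2 particle of the spliceosome, and its complex holds the branch point of the intron. The series addresses, by its title, whether SF3B1 takes part in HIF1A activation and glycolysis.

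The libraries were made with a stranded kit, but no source used here gives the strand setting of the counting, so a gene whose exons overlap another listed gene is uncertain and named as such. Depth lay between 20496492 and 25257173 reads per library. The deposited values were scaled with effective library sizes of 0.927 to 0.949 of the read total in siSF3B1 hypoxic libraries, 1.023 to 1.025 in siCtrl hypoxic and 1.044 to 1.055 in siCtrl normoxic libraries. Of 12 ductal epithelium markers 10 were listed, and their summed level was 8.39e+03 to 1.12e+04 CPM in siSF3B1 hypoxic, 5.06e+03 to 6.41e+03 in siCtrl hypoxic and 5.43e+03 to 6.39e+03 in siCtrl normoxic libraries. Fibroblast markers (3 of 8 listed, with COL1A2, DCN, LUM, FAP and POSTN not among them) summed to 14.7 to 38, 23.8 to 55.6 and 17.5 to 41.3 CPM in the same order of groups, and of 9 blood and endothelial markers only CD68, a lysosomal protein, was listed. Nothing in the labels says whether libraries of a group were grown as separate cultures: the p-values rest on spread between libraries that may be technical. In bulk RNA, fewer cells of a kind and less RNA per cell cannot be told apart.

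SF3B1 itself, on chromosome 2, fell. SF3B1 had 5.44, 5.18 and 5.41 log2 CPM in siSF3B1 hypoxic cells, against 8.86, 8.74 and 8.70 in siCtrl hypoxic and 8.88 and 8.87 in siCtrl normoxic cells. All 3 siSF3B1 libraries lay far below the other 5, and the log2 difference from siCtrl normoxic cells was -3.53 ± 0.087 (SE, n = 3 against 2), 11.6-fold lower (limma, adjusted p = 2.19e-08). Against siCtrl normoxic cells 8178 genes differed in siSF3B1 hypoxic cells, 62.4% of those tested, with 4473 higher (34.1%) and 3705 lower (28.3%) at an adjusted p under 0.05. The split depended on scaling: with plain read totals 3173 were higher and 4828 lower, the median of all genes moving by -0.17 on the log2 scale. A difference of at least 1 on the log2 scale was reached by 828 higher genes (6.31%) and 1065 lower genes (8.12%). Low oxygen alone moved far fewer: 741 genes (5.65%) were called between siCtrl hypoxic and siCtrl normoxic cells, 570 of them higher (4.35%) and 171 lower (1.3%).

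The hypoxia program was taken as the genes called higher in siCtrl hypoxic than in siCtrl normoxic cells by at least 1 on the log2 scale, 197 genes (1.5%). PPP1R3B lay just inside that size at 1.00. Of the 197, 151 (76.6%) were called higher in siSF3B1 hypoxic than in siCtrl normoxic cells, where the share over all genes was 34.1%. These 151 persisting genes divide by the comparison of siSF3B1 hypoxic with siCtrl hypoxic cells, in which 30.9% of all genes were called lower and 35% higher: 68 were held with no call, 9 were raised further and 74 were reduced but still above normoxia. Only 6 (3.0%) were back at the normoxic level, meaning no call against siCtrl normoxic cells and a 95% confidence interval wholly within 0.5 of 0. The library numbers in the titles run in sets that hold at most 1 library of each group, and with these sets as a replicate block in the fit this number was 12, and without siCtrl normoxic library 1 it was 3. A further 34 (17.3%) were not called and had a wider interval, so that they are undecided, and 6 (3.0%) were called below normoxia. The program was chosen on the siCtrl libraries that both comparisons also use, so these shares describe the program and are not independent of the choice. These counts come from the fit without the replicate block. With the block 216 genes formed the program and 167 persisted, 137 of them among the 151.

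As a measure of size, the log2 difference of siSF3B1 hypoxic from siCtrl normoxic cells was expressed as a percent of the siCtrl hypoxia difference. Its median over the 197 genes was 67.9%, with quartiles at 38.6% and 88.1%. Taken library by library, the median was 76.2%, 57.7% and 68.0% in siSF3B1 hypoxic libraries 3, 6 and 9, an SD of 9.29 percentage points. Library 6 thus held the least of the program. With plain read totals the median was 58.0%.

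**Figure D1:**
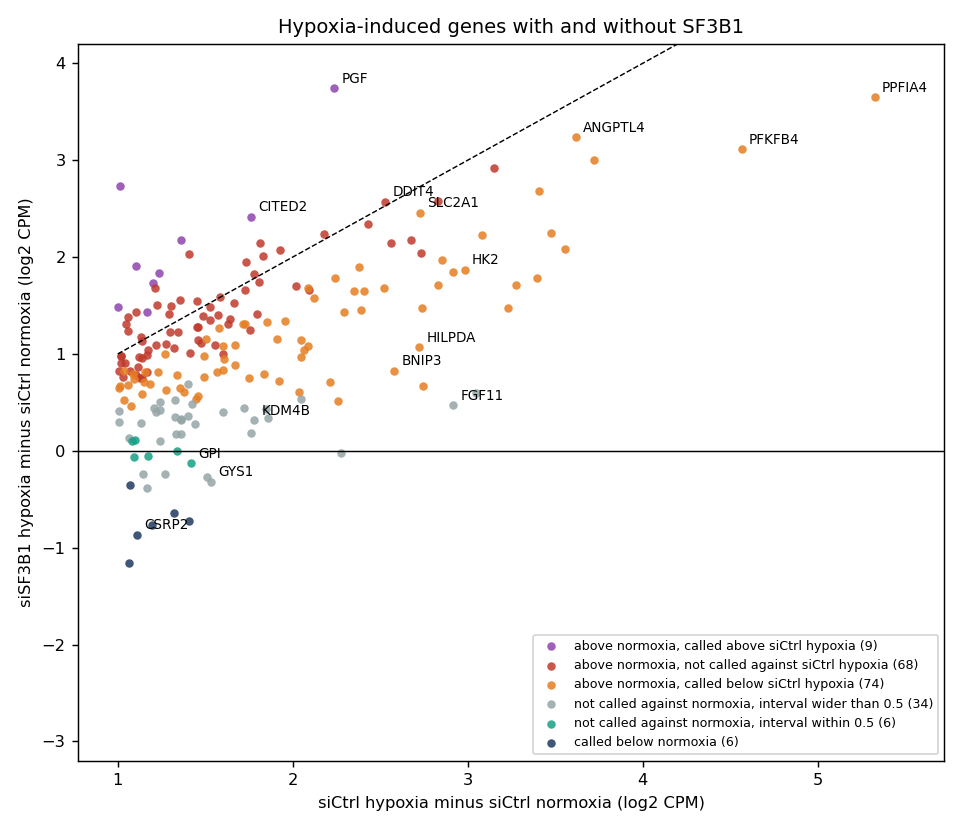
Each of the 197 hypoxia-induced genes by its log2 CPM difference between siSF3B1 hypoxic and siCtrl normoxic cells (vertical axis) and between siCtrl hypoxic and siCtrl normoxic cells (horizontal axis), coloured by class, with the dashed line at equal differences and the solid line at 0. Most points lie above 0 and below the dashed line; 6 genes called below normoxia lie under 0, and PGF and CITED2 are among the 9 above the dashed line that were raised further.

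To show the sequence context of the classes, 3 promoters are printed from RefSeq (GRCh38.p14), each from 250 bases before to 50 bases after the gene's first listed start, 5′ to 3′ on the strand of the gene. ERO1A was held, BNIP3 was reduced and GPI was back at the normoxic level. Capitals mark the letters ACGTG and GCGTG and, for the other strand, CACGT and CACGC; in BNIP3 the matches CACGT and ACGTG overlap by all but 1 letter.
ERO1A, chr14:52695509-52695808, minus strand: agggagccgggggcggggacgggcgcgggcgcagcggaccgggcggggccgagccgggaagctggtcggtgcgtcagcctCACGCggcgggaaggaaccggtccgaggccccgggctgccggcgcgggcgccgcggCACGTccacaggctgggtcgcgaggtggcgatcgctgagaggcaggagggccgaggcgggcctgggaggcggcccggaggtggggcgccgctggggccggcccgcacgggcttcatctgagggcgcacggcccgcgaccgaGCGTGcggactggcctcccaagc
BNIP3, chr10:131981874-131982173, minus strand: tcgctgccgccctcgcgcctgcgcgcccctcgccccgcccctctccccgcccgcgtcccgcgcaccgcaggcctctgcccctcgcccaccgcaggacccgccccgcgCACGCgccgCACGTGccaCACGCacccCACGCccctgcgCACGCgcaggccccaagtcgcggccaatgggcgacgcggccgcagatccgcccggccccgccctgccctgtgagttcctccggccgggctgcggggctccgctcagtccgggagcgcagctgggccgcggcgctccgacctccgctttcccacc
GPI, chr19:34364742-34365041, plus strand: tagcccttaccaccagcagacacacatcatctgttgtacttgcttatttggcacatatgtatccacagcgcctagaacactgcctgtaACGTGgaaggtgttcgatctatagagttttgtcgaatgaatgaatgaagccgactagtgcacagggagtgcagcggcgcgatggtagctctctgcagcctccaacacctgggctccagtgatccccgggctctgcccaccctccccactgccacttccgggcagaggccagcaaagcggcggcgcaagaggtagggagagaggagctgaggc
ERO1A held 3 matches, at -170, -114 and 27 bases from its start. BNIP3 held 6, all between -143 and -104. GPI held 1, at -162. Either motif on either strand occurred in 64.2% of the promoters of tested genes that had one in the table and in 48.4% of all 27305 promoters listed. For ACGTG on either strand the share was 27.1% of tested genes, 41.0% of the hypoxia program, 40.8% of its persisting genes (49 of 120 with a promoter listed) and 41.7% of the rest of the program (15 of 36). Either motif stood in 69.2% of the persisting genes' promoters (83 of 120) and in 77.8% of those of the rest of the program (28 of 36). The differences between these shares were not tested. A match is a description of the letters, not a site bound by HIF. Median exon number was 7.0 in persisting genes and 6.5 in the other program genes, against 9.0 over all tested genes.

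Of 116 genes in 11 lists of hypoxia biology, 108 passed the filter. In siSF3B1 hypoxic against siCtrl normoxic cells 78 of them were higher, 13 lower and 17 not called. Their median log2 difference was 0.74, beside 0.06 over all tested genes. Over all tested genes 34.1% were called higher and 28.3% lower, and each list's counts below stand beside these shares. In siCtrl hypoxic cells 68 of the 108 were higher than in siCtrl normoxic cells by any size, and 60 of these were still higher without SF3B1: 20 held, 7 raised further and 33 reduced. Of the other 8, 2 were back, 4 undecided and 2 below normoxia. The median share of the hypoxia difference kept by the 68 was 75.8%.

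**Figure D2:**
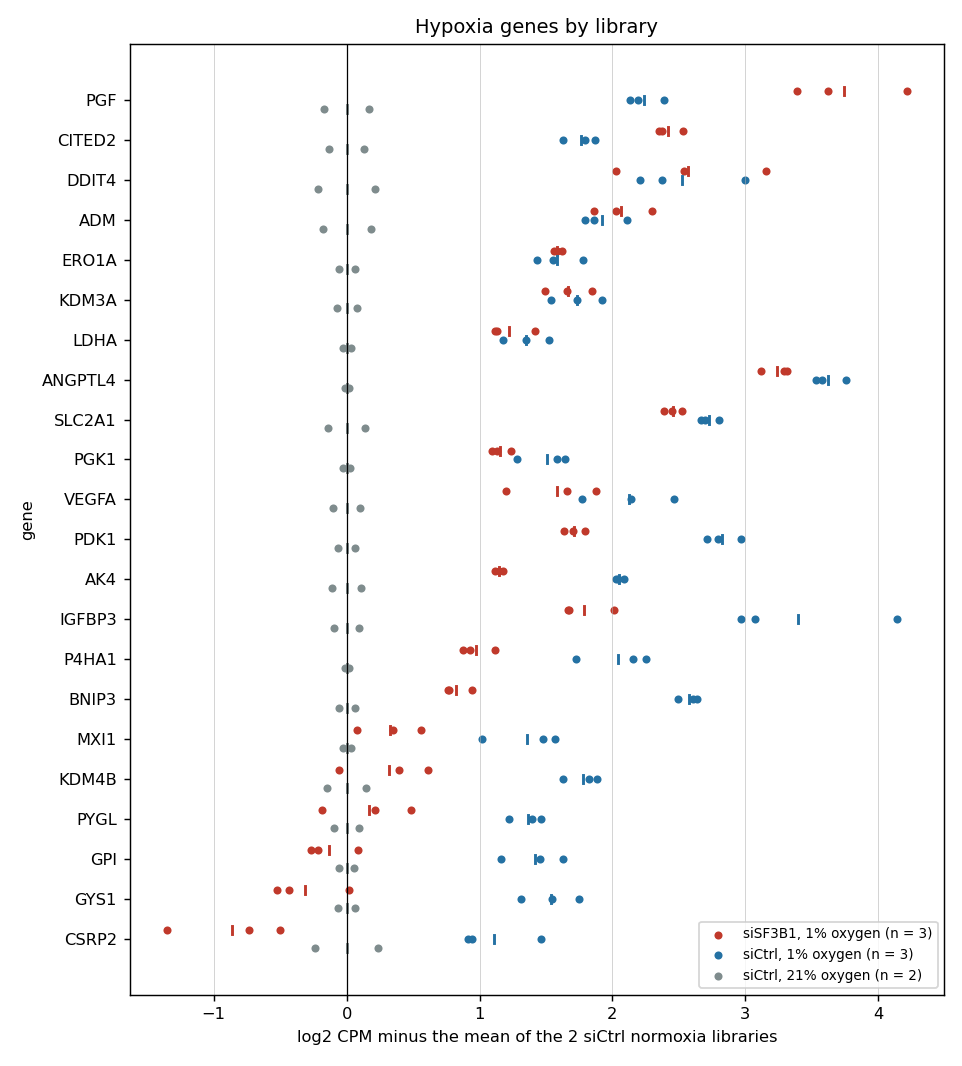
Log2 CPM of 22 hypoxia genes in every library, relative to the mean of the siCtrl normoxic libraries, with a tick at each group's mean (siSF3B1 at 1% oxygen in red, siCtrl at 1% in blue, siCtrl at 21% in grey). From the top, PGF and CITED2 lie above siCtrl hypoxia, DDIT4 to LDHA overlap it, ANGPTL4 to BNIP3 lie lower but above normoxia, and MXI1 to CSRP2 lie near or below the normoxic libraries.

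The oxygen-sensing machinery moved in opposite ways across its parts. HIF1A, the oxygen-regulated alpha subunit, was lower in both hypoxic states. HIF1A had 6.09, 6.39 and 5.97 log2 CPM in siSF3B1 hypoxic cells, against 5.38, 5.49 and 4.90 in siCtrl hypoxic and 6.91 and 6.89 in siCtrl normoxic cells. The 3 groups did not overlap: the siSF3B1 hypoxic libraries lay between the other 2 groups, -0.75 ± 0.17 (SE) from siCtrl normoxia (adjusted p = 0.00282) and 0.89 above siCtrl hypoxia (adjusted p = 0.000429). ARNT, the shared beta subunit, fell by 0.92 ± 0.081 (adjusted p = 7.7e-06), with 4.84, 4.99 and 4.86 log2 CPM in siSF3B1 hypoxic, 5.80, 5.78 and 5.87 in siCtrl hypoxic and 5.87 and 5.76 in siCtrl normoxic cells. In siCtrl hypoxia ARNT was 0.00 from normoxia, with no call. EPAS1, the other alpha subunit, rose slightly, by 0.28 ± 0.066 (adjusted p = 0.00373), and lost this call with plain read totals (0.12, adjusted p = 0.16) and quantile normalization (0.10, adjusted p = 0.226). The coactivators EP300 and CREBBP rose by 0.40 and 0.41 (adjusted p = 0.000709 and 0.00307), and neither was called in siCtrl hypoxia. The inducible hydroxylases EGLN1 and EGLN3 kept 80.1% and 50.3% of their hypoxia difference, still 1.27 and 1.04 above normoxia and both below siCtrl hypoxia. CITED2, which competes with HIF for its coactivators, was raised further. CITED2 had 8.65, 8.47 and 8.49 log2 CPM in siSF3B1 hypoxic cells, against 7.99, 7.75 and 7.91 in siCtrl hypoxic and 6.25 and 5.99 in siCtrl normoxic cells. No siSF3B1 hypoxic library overlapped either other group, and CITED2 stood 2.42 ± 0.100 above normoxia (adjusted p = 1.45e-07) and 0.66 above siCtrl hypoxia (adjusted p = 0.000101). In all, 7 of 11 tested genes of this list were higher, 2 lower and 2 not called. Among the higher genes VHL was borderline (0.26, adjusted p = 0.0424). VHL lost its call with plain read totals and quantile normalization (adjusted p = 0.437 and 0.189). It also lost it without siSF3B1 hypoxic library 3 or 9 (adjusted p = 0.0536 and 0.132). The median of the list was 0.29, and 0.12 with plain read totals.

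Glucose uptake and upper glycolysis largely persisted: 10 of 12 genes were higher than in normoxia, 1 was lower and 1 not called. Their median was 0.87, beside 1.24 in siCtrl hypoxia. Against siCtrl hypoxia 7 of the 12 were called lower and 5 were not called. SLC2A1, the glucose transporter GLUT1, stayed near its siCtrl hypoxic level. SLC2A1 had 7.91, 7.85 and 7.98 log2 CPM in siSF3B1 hypoxic cells, against 8.13, 8.26 and 8.16 in siCtrl hypoxic and 5.32 and 5.60 in siCtrl normoxic cells. All siSF3B1 hypoxic libraries lay over 2 log2 units above normoxia and just under the siCtrl hypoxic ones, with 2.46 ± 0.089 (adjusted p = 7.86e-08) and 90.1% of the hypoxia difference kept. Its call below siCtrl hypoxia (-0.27, adjusted p = 0.0125) was lost without siCtrl hypoxic library 5. HK2, the inducible hexokinase, kept 62.7%, with 4.84, 4.98 and 5.33 log2 CPM against 5.97, 6.01 and 6.50 in siCtrl hypoxic and 2.99 and 3.36 in siCtrl normoxic cells. PFKFB3 and PFKFB4 make the activator of phosphofructokinase, and they separated. PFKFB3 was held at 96.3%, with 6.70, 6.50 and 7.06 log2 CPM against 6.79, 6.63 and 7.03 in siCtrl hypoxic and 4.98 and 5.03 in siCtrl normoxic cells. PFKFB4, whose exons overlap UCN2, was reduced to 68.2%, with 6.31, 5.73 and 6.50 log2 CPM against 7.53, 7.4 and 7.96 and 3.17 and 2.96. It nonetheless was 3.12 ± 0.22 above normoxia (adjusted p = 1.82e-06), among the 10 highest genes of the comparison. Of the aldolases, ALDOA was held at 96.3% and ALDOC was reduced to 58.5%. ALDOA was called below siCtrl hypoxia with quantile normalization (-0.295, adjusted p = 0.0193). Its difference in siCtrl hypoxia fell short of the program's size with quantile normalization (0.852) and plain read totals (0.985). The same held without siCtrl hypoxic library 2 or 8 (0.979 each). ALDOC lost its call below siCtrl hypoxia (-1.47, adjusted p = 0.0171) without siSF3B1 hypoxic library 6 or 9 or siCtrl hypoxic library 2 or 8 (adjusted p = 0.057 to 0.0672). Its call above normoxia was lost without siCtrl normoxic library 4 (1.77, adjusted p = 0.0512) and with voom on recovered reads (2.12, adjusted p = 0.0536). PFKM, the muscle-type phosphofructokinase, was the 1 gene of the list that fell, to 5.01, 4.73 and 4.57 log2 CPM against 5.66, 5.48 and 5.42 in siCtrl hypoxic and 5.66 and 5.70 in siCtrl normoxic cells (adjusted p = 0.000137).

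GPI, glucose-6-phosphate isomerase, which makes the second step of glycolysis, was the exception of this list. GPI had 8.84, 8.54 and 8.49 log2 CPM in siSF3B1 hypoxic cells, against 10.21, 9.92 and 10.38 in siCtrl hypoxic and 8.70 and 8.81 in siCtrl normoxic cells. The siSF3B1 hypoxic libraries overlapped the normoxic ones and lay at least 1 log2 unit under every siCtrl hypoxic library. Its difference from normoxia was -0.13, with a 95% confidence interval of -0.43 to 0.18 (adjusted p = 0.435), and its difference from siCtrl hypoxia was -1.55 (adjusted p = 2.75e-06). The interval reached past 0.5 with plain read totals, with quantile normalization and without siSF3B1 hypoxic library 3 or siCtrl normoxic library 1. The hexokinases HK1 and HK2 before it in the pathway and the phosphofructokinases PFKL and PFKP after it were called above normoxia, at 0.68, 1.87, 0.76 and 0.43. HK1 and PFKL, fitted with the replicate block, fell just short of the program's size in siCtrl hypoxia (0.997 and 0.98). PFKL was held, but with the block it was called below siCtrl hypoxia (-0.27, adjusted p = 0.00803). The same call was made with plain read totals (-0.40, adjusted p = 0.0338).

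All 6 genes of lower glycolysis were higher than in normoxia, with a median of 0.68 (0.26 with quantile normalization) beside 0.82 in siCtrl hypoxia. Against siCtrl hypoxia 4 of the 6 were called lower and 2 higher. PGK1, the first ATP-forming enzyme of the pathway, shows the pattern, although its exons overlap ATP7A. PGK1 had 10.42, 10.28 and 10.32 log2 CPM in siSF3B1 hypoxic cells, against 10.77, 10.47 and 10.83 in siCtrl hypoxic and 9.16 and 9.21 in siCtrl normoxic cells. The 3 groups were separate, with 1.15 ± 0.10 from normoxia (adjusted p = 7.95e-06). ENO1 and PKM, the main enolase and pyruvate kinase, were above siCtrl hypoxia as well as normoxia, at 0.60 and 0.72 from normoxia against 0.38 and 0.44 in siCtrl hypoxia. With quantile normalization neither was called above normoxia (0.05 and 0.18, adjusted p = 0.61 and 0.0688). ENO2, the second enolase, was reduced to 54.0%.

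Of 11 genes of pyruvate diversion, lactate and pH, 8 were higher, 1 lower and 2 not called, with a median of 1.16, beside 0.29 in siCtrl hypoxia. Low oxygen alone raised 5 of the 11, of which 4 were held and 1 reduced. LDHA, which makes lactate, had 11.46, 11.16 and 11.17 log2 CPM in siSF3B1 hypoxic, 11.56, 11.22 and 11.39 in siCtrl hypoxic and 10.07 and 10.01 in siCtrl normoxic cells. Its hypoxic groups overlapped and both lay above normoxia, by 1.22 ± 0.12 (adjusted p = 1.14e-05) in siSF3B1 hypoxic cells. With quantile normalization LDHA was called below siCtrl hypoxia (-0.32, adjusted p = 0.0123). The lactate exporter SLC16A3 was likewise held, with 1.41 from normoxia, though CSNK1D overlaps it on the other strand, and was called above siCtrl hypoxia without siSF3B1 hypoxic library 6 (0.25, adjusted p = 0.0268). PDK1, a pyruvate dehydrogenase kinase, was reduced. PDK1 had 5.12, 5.05 and 5.21 log2 CPM in siSF3B1 hypoxic cells, against 6.21, 6.13 and 6.38 in siCtrl hypoxic and 3.35 and 3.48 in siCtrl normoxic cells. Its groups were separate, and 60.6% of the hypoxia difference was kept (siSF3B1 hypoxic minus siCtrl hypoxic -1.12, adjusted p = 2.48e-06). PDK3, of the same family, was held at 84.4%, but called below siCtrl hypoxia without siSF3B1 hypoxic library 3 (-0.51, adjusted p = 0.0475). The bicarbonate transporter SLC4A7 and the pyruvate and lactate carrier SLC16A1 rose by 1.16 and 0.91 without a call in siCtrl hypoxia.

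Of 12 glycogen genes 6 were higher, 2 lower and 4 not called, beside 34.1% of all tested genes higher and 28.3% lower. PPP1R3C, a subunit that directs protein phosphatase to glycogen, kept 78.5%, with 2.65, 2.68 and 2.85 log2 CPM in siSF3B1 hypoxic, 3.55, 3.31 and 3.52 in siCtrl hypoxic and -0.24 and 0.34 in siCtrl normoxic cells. Its relative PPP1R3B was raised further, 1.48 against 1.00 in siCtrl hypoxia. GYS1, glycogen synthase, lost its induction. GYS1 had 4.71, 4.17 and 4.26 log2 CPM in siSF3B1 hypoxic cells, against 6.24, 6.01 and 6.44 in siCtrl hypoxic and 4.76 and 4.63 in siCtrl normoxic cells. All siSF3B1 hypoxic libraries lay more than 1 log2 unit under siCtrl hypoxia (-1.85, adjusted p = 2.77e-06) and overlapped normoxia. The interval against normoxia, -0.69 to 0.05, reached past 0.5, so a return to the normoxic level is undecided. With the replicate block it was called below normoxia (-0.34, adjusted p = 0.0218), as it was without siSF3B1 hypoxic library 3 (-0.48, adjusted p = 0.01) and with plain read totals (-0.49, adjusted p = 0.0315). PYGL, glycogen phosphorylase of liver type, was similar, at 0.17 from normoxia with an interval of -0.20 to 0.55, against 1.36 in siCtrl hypoxia. PYGL was called above normoxia without siSF3B1 hypoxic library 9 (0.35, adjusted p = 0.0405), and was back at the normoxic level without siSF3B1 hypoxic library 3 (0.015, adjusted p = 0.932) and with plain read totals (0.007, adjusted p = 0.975).

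All 4 mitochondrial genes that low oxygen induced were below siCtrl hypoxia and above normoxia, and of the 8 tested genes of the list 5 were higher than in normoxia, 1 lower and 2 not called. BNIP3, a mitophagy receptor on the outer mitochondrial membrane, kept the least of the 4. BNIP3 had 7.36, 7.19 and 7.18 log2 CPM in siSF3B1 hypoxic cells, against 9.03, 8.91 and 9.06 in siCtrl hypoxic and 6.36 and 6.48 in siCtrl normoxic cells. The 3 groups were separate, and BNIP3 kept 32.0% of its hypoxia difference, at 0.82 ± 0.080 from normoxia (adjusted p = 1.32e-05) and -1.76 from siCtrl hypoxia (adjusted p = 9.71e-08). AK4, a mitochondrial adenylate kinase, kept 55.8%, with 7.14, 7.17 and 7.11 log2 CPM against 8.02, 8.08 and 8.03 in siCtrl hypoxic and 5.88 and 6.10 in siCtrl normoxic cells. BNIP3L, the related receptor, and FAM162A kept 75.6% and 71.5%. HIGD1A, a respiratory chain factor known as a hypoxia gene, was not induced in siCtrl hypoxia (-0.02) and was -0.73 in siSF3B1 hypoxic cells (adjusted p = 7.61e-05).

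Of 10 oxygen-dependent demethylases 5 were higher, 2 lower and 3 not called, beside 34.1% of all tested genes higher and 28.3% lower. KDM3A and KDM4B separated. KDM3A was held, with 7.62, 7.46 and 7.81 log2 CPM in siSF3B1 hypoxic, 7.70, 7.5 and 7.89 in siCtrl hypoxic and 5.89 and 6.04 in siCtrl normoxic cells. KDM4B had 5.27, 4.60 and 5.05 log2 CPM in siSF3B1 hypoxic, 6.48, 6.28 and 6.54 in siCtrl hypoxic and 4.80 and 4.51 in siCtrl normoxic cells. KDM3A thus overlapped siCtrl hypoxia (1.66 from normoxia, adjusted p = 2.5e-06), whereas KDM4B overlapped normoxia (0.32, interval -0.07 to 0.70, adjusted p = 0.135) and is undecided. KDM4B was called above normoxia with the replicate block (0.27, adjusted p = 0.0237) and without siSF3B1 hypoxic library 6 (0.50, adjusted p = 0.00683). KDM4C, induced by 0.52 in siCtrl hypoxia, was below normoxia in siSF3B1 hypoxic cells, at -0.31 (adjusted p = 0.0293), a call lost without siSF3B1 hypoxic library 3 or 9 or either siCtrl normoxic library (adjusted p = 0.0506 to 0.123) and with quantile normalization. TET1, a DNA demethylase, fell by 1.12 (adjusted p = 0.000504).

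Of 8 collagen hydroxylases and lysyl oxidases 6 were higher, 1 lower and 1 not called. P4HA1, the catalytic subunit of collagen prolyl hydroxylase, kept 47.5%, with 7.41, 7.17 and 7.22 log2 CPM in siSF3B1 hypoxic, 8.45, 8.02 and 8.55 in siCtrl hypoxic and 6.31 and 6.28 in siCtrl normoxic cells. Its partner P4HA2 kept 58.7% and PLOD2, a collagen lysyl hydroxylase, 76.1%, though PLOD2 lost its call below siCtrl hypoxia without siSF3B1 hypoxic library 9 or siCtrl hypoxic library 2 or 8. PLOD1, induced by only 0.65, was back, at -0.07 (interval -0.31 to 0.17). LOX, a collagen crosslinking enzyme, was held in siSF3B1 hypoxic cells at 1.49, 1.88 and 2.40 log2 CPM, with 1.56, 1.62 and 2.05 in siCtrl hypoxic and -0.75 and 0.58 in siCtrl normoxic cells, and its normoxic libraries differed by over 1 log2 unit. Its call above normoxia in siCtrl hypoxia was lost without siCtrl hypoxic library 2 or 8 or siCtrl normoxic library 1 (adjusted p = 0.0537, 0.082 and 0.177). LOXL4, another member of the family, fell to 2.94, 2.7 and 2.62 log2 CPM, against 4.21, 3.82 and 3.60 in siCtrl hypoxic and 4.0 and 3.61 in siCtrl normoxic cells.

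Secreted factors kept most of their induction, with 9 of 10 genes higher, 1 lower and a median of 1.73, beside 2.10 in siCtrl hypoxia. PGF, placental growth factor, exceeded it. PGF had 6.58, 5.75 and 5.98 log2 CPM in siSF3B1 hypoxic cells, against 4.75, 4.55 and 4.49 in siCtrl hypoxic and 2.53 and 2.19 in siCtrl normoxic cells. The 3 groups were separate: PGF was 3.74 ± 0.21 above normoxia (adjusted p = 6.18e-07), 13.4-fold higher, and 1.51 above siCtrl hypoxia (adjusted p = 5.96e-05). VEGFA, its relative and the main angiogenic factor of hypoxia, went the other way, with 7.22, 6.76 and 7.44 log2 CPM against 7.70, 7.33 and 8.02 in siCtrl hypoxic and 5.66 and 5.46 in siCtrl normoxic cells. VEGFA kept 74.5% and the hypoxic groups overlapped in 1 library (-0.54, adjusted p = 0.0278), a call lost without siSF3B1 hypoxic library 6 or siCtrl hypoxic library 2 or 8. ADM, the vasodilator peptide adrenomedullin, was held at 2.07 ± 0.14 from normoxia (adjusted p = 1.87e-06), and with the replicate block it was called above siCtrl hypoxia (0.15, adjusted p = 0.0342). ANGPTL4, an inhibitor of lipoprotein lipase, was among the 10 highest genes with 8.56, 8.36 and 8.54 log2 CPM, against 8.82, 8.78 and 9.0 in siCtrl hypoxic and 5.23 and 5.26 in siCtrl normoxic cells. It kept 89.5%, with RAB11B-AS1 overlapping it on the other strand. IGFBP3, a carrier of insulin-like growth factors, kept 52.6%, and 1 siCtrl hypoxic library, at 5.04 log2 CPM, lay more than 1 unit above the other two. EDN1, the vasoconstrictor endothelin, fell by 0.79 (adjusted p = 0.0117), a call lost without siCtrl normoxic library 1 (adjusted p = 0.088), and was not called in siCtrl hypoxia.

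Of 6 lipid droplet and lipid uptake genes 5 were higher and 1 was not called. PLIN2, the droplet coat protein, was held. PLIN2 had 6.49, 6.60 and 6.80 log2 CPM in siSF3B1 hypoxic cells, against 6.21, 6.35 and 6.34 in siCtrl hypoxic and 4.2 and 4.78 in siCtrl normoxic cells. Its siSF3B1 hypoxic libraries lay above siCtrl hypoxia without a call (0.33, adjusted p = 0.0533) and 2.14 ± 0.15 above normoxia (adjusted p = 1.91e-06). With the replicate block the difference from siCtrl hypoxia was called (0.33, adjusted p = 0.00344), as it was without siSF3B1 hypoxic library 3 or either siCtrl normoxic library. HILPDA, which blocks the lipase of the droplet, was reduced to 39.3%, with 5.62, 5.18 and 5.74 log2 CPM against 7.07, 6.70 and 7.73 in siCtrl hypoxic and 4.55 and 4.34 in siCtrl normoxic cells. VLDLR, a lipoprotein receptor, was held at 2.18 from normoxia, and with the replicate block it was called below siCtrl hypoxia (-0.50, adjusted p = 0.0321), as it was with plain read totals and without siCtrl hypoxic library 5 (adjusted p = 0.0377 and 0.0398).

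In the list of transcriptional and growth brakes 11 of 14 were higher, 2 lower and 1 not called. The list also holds genes of other roles, such as PPFIA4. DDIT4, which restrains mTORC1, was held. DDIT4 had 8.63, 8.12 and 9.25 log2 CPM in siSF3B1 hypoxic cells, against 8.47, 8.30 and 9.09 in siCtrl hypoxic and 6.31 and 5.88 in siCtrl normoxic cells. The hypoxic groups overlapped completely and lay far above normoxia (2.57 ± 0.30, adjusted p = 5.03e-05). ERO1A, the disulfide oxidase of the endoplasmic reticulum whose promoter is printed above, had 8.63, 8.65 and 8.69 log2 CPM in siSF3B1 hypoxic, 8.62, 8.50 and 8.85 in siCtrl hypoxic and 7.01 and 7.13 in siCtrl normoxic cells, and kept 100.2%. BHLHE40, a repressor of the clock, was held at 1.56 (called above siCtrl hypoxia with the replicate block, 0.20, adjusted p = 0.00802), and its partner BHLHE41 was above siCtrl hypoxia, 1.07 against 0.83 from normoxia. PPFIA4, a liprin scaffold protein, had the largest hypoxia difference of the program, 5.33, and kept 68.5%. Its values were 3.55, 2.96 and 3.10 log2 CPM in siSF3B1 hypoxic, 4.79, 4.79 and 5.06 in siCtrl hypoxic and -0.65 and -0.24 in siCtrl normoxic cells. DEPP1, NDRG1 and INSIG2 kept 80.8%, 69.0% and 60.7%. ZNF395 kept 22.9% and lost its call above normoxia without siCtrl normoxic library 1 (0.40, adjusted p = 0.104) and with plain read totals (0.35, adjusted p = 0.0662). MXI1, an antagonist of MYC, had 3.77, 3.29 and 3.56 log2 CPM in siSF3B1 hypoxic, 4.69, 4.23 and 4.78 in siCtrl hypoxic and 3.24 and 3.18 in siCtrl normoxic cells. It lay just above normoxia in every siSF3B1 library without a call (0.33, interval -0.07 to 0.73), which it gained without siSF3B1 hypoxic library 6 (0.46, adjusted p = 0.0478).

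TXNIP, a brake on glucose uptake that low oxygen lowered, went lower still without SF3B1. TXNIP had 0.12, 0.59 and 0.91 log2 CPM in siSF3B1 hypoxic cells, against 1.74, 2.7 and 1.94 in siCtrl hypoxic and 3.39 and 4.16 in siCtrl normoxic cells. The groups were separate and TXNIP was -3.24 ± 0.34 from normoxia (adjusted p = 2.2e-05), among the 10 lowest genes. CSRP2, a LIM-domain protein, was instead induced by low oxygen and below normoxia without SF3B1, with 1.44, 1.21 and 0.59 log2 CPM against 2.86, 2.89 and 3.41 in siCtrl hypoxic and 1.71 and 2.18 in siCtrl normoxic cells. Its induction in siCtrl hypoxia (1.11, adjusted p = 0.0454) lost its call with plain read totals, with quantile normalization and without any 1 siCtrl library (adjusted p = 0.0531 to 0.323). The call below normoxia (-0.86, adjusted p = 0.0196) was lost without siSF3B1 hypoxic library 9 (adjusted p = 0.0575) or siCtrl normoxic library 4 (adjusted p = 0.161).

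The class of 6 genes back at normoxia held GPI, MFNG, ZC3HAV1L, WNT9A, WDR54 and TMEM189. WNT9A, a secreted WNT ligand, shows them: 5.54, 5.0 and 5.20 log2 CPM in siSF3B1 hypoxic, 6.29, 6.10 and 6.31 in siCtrl hypoxic and 5.27 and 5.0 in siCtrl normoxic cells. MFNG, a glycosyltransferase that modifies Notch, was at 0.00 from normoxia against 1.34 in siCtrl hypoxia. For 5 of the 6 the siSF3B1 hypoxic and normoxic libraries overlapped; TMEM189 lay above normoxia in all 3 libraries by 0.10 on average (adjusted p = 0.272). ZC3HAV1L and TMEM189 stayed in the class under all 15 alternatives fitted to the 3 groups, and the other 4 left it under at least 1. Below normoxia were CSPG5, ARL10, LOC101927789, CSRP2, KIAA0895 and LINC01273, the last named after its values were seen. Each of the 6 left the class without siCtrl normoxic library 4. CSPG5, ARL10, CSRP2 and LINC01273 also left it without siCtrl normoxic library 1. The call of CSPG5 below normoxia (-0.72, adjusted p = 0.0498) was lost without any 1 hypoxic library (adjusted p = 0.0651 to 0.0904). It was also lost with no filter, quantile normalization, voom or only the 5 compared libraries (adjusted p = 0.0517 to 0.103). LINC01273 lost its induction call without any 1 siCtrl hypoxic library (adjusted p = 0.0636 to 0.101). KIAA0895 had 5.23, 5.56 and 5.5 log2 CPM in siSF3B1 hypoxic, 6.86, 6.90 and 6.79 in siCtrl hypoxic and 5.75 and 5.82 in siCtrl normoxic cells, although ANLN overlaps it on the other strand. The undecided genes with the largest hypoxia difference were TSPEAR-AS2, FGF11, NOTCH3, KCTD11, TMEM45A and KDM4B. NOTCH3 lost its call of induction in siCtrl hypoxia without siCtrl hypoxic library 2 or 8 (adjusted p = 0.0542 and 0.0526). FGF11, a growth factor homologue, had 3.11, 1.88 and 2.71 log2 CPM in siSF3B1 hypoxic, 5.16, 4.71 and 5.17 in siCtrl hypoxic and 2.04 and 2.15 in siCtrl normoxic cells, so that 16% of its induction was kept. Its siSF3B1 libraries spread over 1 log2 unit around the normoxic level, and without siSF3B1 hypoxic library 6 FGF11, NOTCH3 and KCTD11 were called above normoxia (adjusted p = 0.00442, 0.0408 and 0.0381). With the replicate block TSPEAR-AS2 and TMEM45A were called above normoxia (adjusted p = 0.0382 and 0.0108) and KCTD11 was back.

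The 9 genes raised further were PGF, CITED2, DUSP1, PPP1R3B, HCG4B (a transcribed pseudogene of the HLA region), RASD1, RNF24, TRIM46 and NR2F2-AS1, of which TRIM46 and NR2F2-AS1 were named after their values were seen. PGF and CITED2 stayed in the class under all 15 alternatives, DUSP1 left it without siCtrl normoxic library 4, and the other 6 left it under at least 2. With the replicate block PPP1R3B and TRIM46 fell just short of the program's size, at 0.87 and 0.99 in siCtrl hypoxia. DUSP1, a phosphatase of MAP kinases and an immediate early gene, had 7.99, 7.82 and 8.08 log2 CPM in siSF3B1 hypoxic, 7.25, 7.06 and 7.18 in siCtrl hypoxic and 6.22 and 5.89 in siCtrl normoxic cells. Its groups were separate, at 1.91 ± 0.11 from normoxia (adjusted p = 6.33e-07). TRIM46, a microtubule-associated protein of axons, reached 2.73 against 1.01 in siCtrl hypoxia, the largest share of the 197 at 269.9%. Among the 68 held genes FAM13A had the largest hypoxia difference. FAM13A had 4.15, 3.93 and 4.13 log2 CPM in siSF3B1 hypoxic cells, against 4.34, 4.22 and 4.33 in siCtrl hypoxic and 1.27 and 1.02 in siCtrl normoxic cells. The siSF3B1 hypoxic libraries lay slightly under siCtrl hypoxia without a call (-0.23, adjusted p = 0.102) and 2.92 above normoxia. With the replicate block it was called below siCtrl hypoxia (adjusted p = 0.0452), as it was with plain read totals (adjusted p = 0.0206). STC1, a secreted glycoprotein hormone, was held at 102.9% and ARRDC3, an arrestin-domain protein, at 96.5%, but ARRDC3 was called below siCtrl hypoxia with plain read totals (adjusted p = 0.0389) and quantile normalization (adjusted p = 0.0491). MIR210HG, the host transcript of a hypoxia microRNA, was reduced, with 3.49, 3.02 and 3.29 log2 CPM against 4.48, 4.29 and 4.71 in siCtrl hypoxic and 1.35 and 0.68 in siCtrl normoxic cells.

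When genes called higher in siCtrl hypoxia at any size were taken, 382 of 570 (67.0%) persisted, 61 (10.7%) were back and 70 (12.3%) were below normoxia. Of 171 genes lowered by low oxygen 56 (32.7%) stayed below normoxia in siSF3B1 hypoxic cells, beside 28.3% of all genes called lower there. Of the others, 41 (24.0%) were back and 58 (33.9%) were called above normoxia, where the share over all genes was 34.1%. At a size of at least 1, 15 genes (0.114%) were lowered. Of these, 8 were still below normoxia, HIF1A, TXNIP and EREG among them, 5 were undecided and 2, SSTR5-AS1 and TMEM26, were above it, SSTR5-AS1 with a call lost without any of 6 single libraries (adjusted p = 0.0577 to 0.241). EREG, an EGF-family ligand, had 3.34, 3.47 and 3.40 log2 CPM in siSF3B1 hypoxic, 2.39, 2.33 and 2.91 in siCtrl hypoxic and 4.13 and 4.03 in siCtrl normoxic cells, an intermediate level like that of HIF1A. TMEM26 had 5.21, 5.06 and 4.89 log2 CPM in siSF3B1 hypoxic, 2.19, 1.72 and 1.20 in siCtrl hypoxic and 2.92 and 2.66 in siCtrl normoxic cells. EREG, SSTR5-AS1 and TMEM26 were named after their values were seen.

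Genes were called new where siSF3B1 hypoxic cells differed from both other groups, by at least 1 on the log2 scale from siCtrl normoxia, and the 95% interval of siCtrl hypoxia minus normoxia lay within 0.5 of 0. By this rule 281 genes were new and higher (2.14%) and 556 new and lower (4.24%). With plain read totals 144 genes were new and higher. New lower genes had a median of 13 exons and new higher genes of 7.0, against 9.0 over all tested genes. ACGTG stood in 23.5% of the promoters of new higher genes and 28.7% of those of new lower genes, close to the 27.1% of tested genes and under the 41.0% of the hypoxia program.

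**Figure D3:**
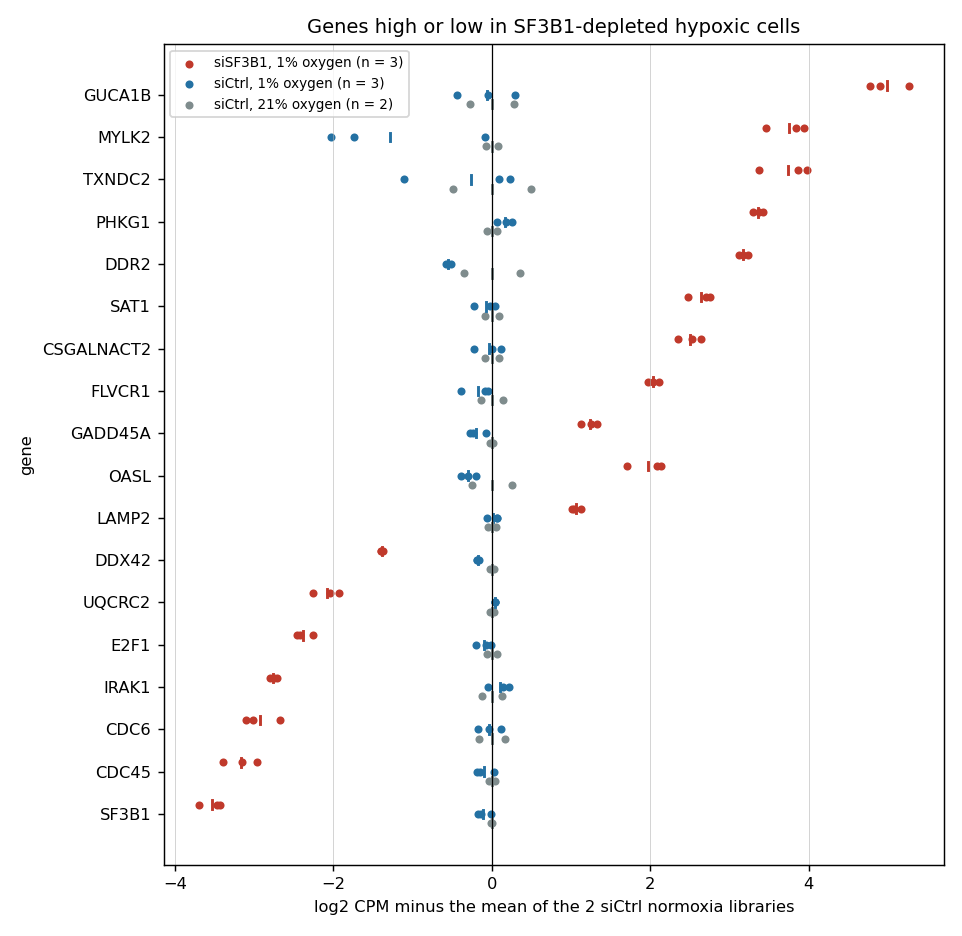
Log2 CPM of 18 genes in every library, relative to the mean of the siCtrl normoxic libraries, with a tick at each group's mean (siSF3B1 at 1% oxygen in red, siCtrl at 1% in blue, siCtrl at 21% in grey). The siSF3B1 libraries lie 1 to 5 log2 units above normoxia for GUCA1B to LAMP2 and 1 to 4 units below it for DDX42 to SF3B1, while most siCtrl hypoxic libraries lie near 0; MYLK2 has siCtrl hypoxic libraries down to about 2 units below.

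The highest new gene was SAT1, the acetyltransferase that starts polyamine breakdown. SAT1 had 7.56, 7.28 and 7.51 log2 CPM in siSF3B1 hypoxic cells, against 4.85, 4.58 and 4.79 in siCtrl hypoxic and 4.90 and 4.72 in siCtrl normoxic cells. The siCtrl libraries did not differ with oxygen beyond -0.07 on average, and all siSF3B1 libraries lay more than 2 log2 units above them (2.64 ± 0.11, adjusted p = 1.73e-07). CSGALNACT2, an enzyme of chondroitin sulfate synthesis, rose by 2.50 and DSC2, a desmosomal cadherin, by 2.21. FLVCR1, a heme and choline transporter, had 6.12, 5.97 and 6.04 log2 CPM in siSF3B1 hypoxic, 3.92, 3.95 and 3.61 in siCtrl hypoxic and 4.14 and 3.87 in siCtrl normoxic cells. PARD6B, a cell polarity protein, RND3, a regulator of the actin cytoskeleton, ZNF557 and CHRNA10 rose by 1.95, 2.06, 2.06 and 1.92, the last with exons that overlap NUP98. In each of these 8 genes the siSF3B1 hypoxic libraries overlapped no siCtrl library.

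The highest differences of the whole comparison included genes whose known expression lies in other tissues. GUCA1B, a guanylate cyclase activator of the retina, was highest. GUCA1B had 5.49, 5.62 and 5.98 log2 CPM in siSF3B1 hypoxic cells, against 0.28, 1.01 and 0.67 in siCtrl hypoxic and 0.44 and 0.99 in siCtrl normoxic cells. The siCtrl libraries lay at about 1 log2 CPM or under in both oxygen states, and the siSF3B1 libraries were 31.6-fold higher than normoxia (4.98 ± 0.25, adjusted p = 3.4e-07). MYLK2, the myosin light chain kinase of skeletal muscle, TXNDC2, a thioredoxin-domain protein of sperm, and PHKG1, the muscle catalytic subunit of phosphorylase kinase, rose by 3.74, 3.74 and 3.36. SUMF2 overlaps PHKG1 on the other strand. DDR2, a collagen receptor kinase, had 4.22, 4.34 and 4.27 log2 CPM in siSF3B1 hypoxic, 0.52, 0.59 and 0.55 in siCtrl hypoxic and 1.46 and 0.75 in siCtrl normoxic cells. CCL5, a chemokine, had 6.67, 7.55 and 7.70 log2 CPM in siSF3B1 hypoxic, 3.68, 4.66 and 5.49 in siCtrl hypoxic and 3.46 and 4.51 in siCtrl normoxic cells, with steps of about 1 log2 unit between libraries of 1 group. These genes did not meet the rule for new genes because the interval of their siCtrl hypoxia difference reached past 0.5.

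DNA replication genes fell nearly throughout. Of 37 genes 36 were lower and 1 was not called, beside 28.3% of all genes called lower, and the median log2 difference was -1.43, beside -0.14 in siCtrl hypoxia. CDC45, a subunit of the replicative helicase, was among the 10 lowest genes. CDC45 had 1.73, 2.16 and 1.97 log2 CPM in siSF3B1 hypoxic cells, against 4.93, 4.97 and 5.15 in siCtrl hypoxic and 5.08 and 5.16 in siCtrl normoxic cells. The siSF3B1 libraries lay about 3 log2 units under all others (-3.17 ± 0.14, adjusted p = 1.94e-07). CDC6, which loads the helicase at origins, fell to 3.59, 4.02 and 3.69 log2 CPM, against 6.52, 6.82 and 6.66 in siCtrl hypoxic and 6.54 and 6.86 in siCtrl normoxic cells. E2F1, a factor that drives S-phase genes, fell by 2.38 and SKP2, which targets cell cycle inhibitors for destruction, by 2.7. Mitosis genes were less uniform, 17 of 28 lower and 11 not called with a median of -0.58. TOP2A, the topoisomerase that untangles chromosomes, fell by 1.72 and ESPL1, separase, by 1.42.

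Other lowest and new lower genes had varied roles. IRAK1, a kinase of interleukin and Toll-like receptor signalling, had 6.97, 7.01 and 6.92 log2 CPM in siSF3B1 hypoxic, 9.67, 9.94 and 9.87 in siCtrl hypoxic and 9.60 and 9.85 in siCtrl normoxic cells. SNX4, an endosomal sorting protein, had 2.86, 2.98 and 2.78, 5.30, 5.48 and 5.45 and 5.49 and 5.77 log2 CPM in the same groups. The siSF3B1 libraries of both genes agreed closely with each other and lay over 2 log2 units below the rest. PRX, a myelin protein, PHF7, PXMP2, a peroxisomal membrane protein, MORC4 and ZNF587B fell by 3.01, 3.00, 2.96, 2.96 and 2.91. ADGRE2, an adhesion receptor of myeloid cells overlapped by ZNF333 on the other strand, had -0.96, -0.42 and 1.35 log2 CPM in siSF3B1 hypoxic, 0.72, 3.47 and 2.93 in siCtrl hypoxic and 3.25 and 3.61 in siCtrl normoxic cells. Its siSF3B1 and siCtrl hypoxic libraries overlapped.

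**Figure D4:**
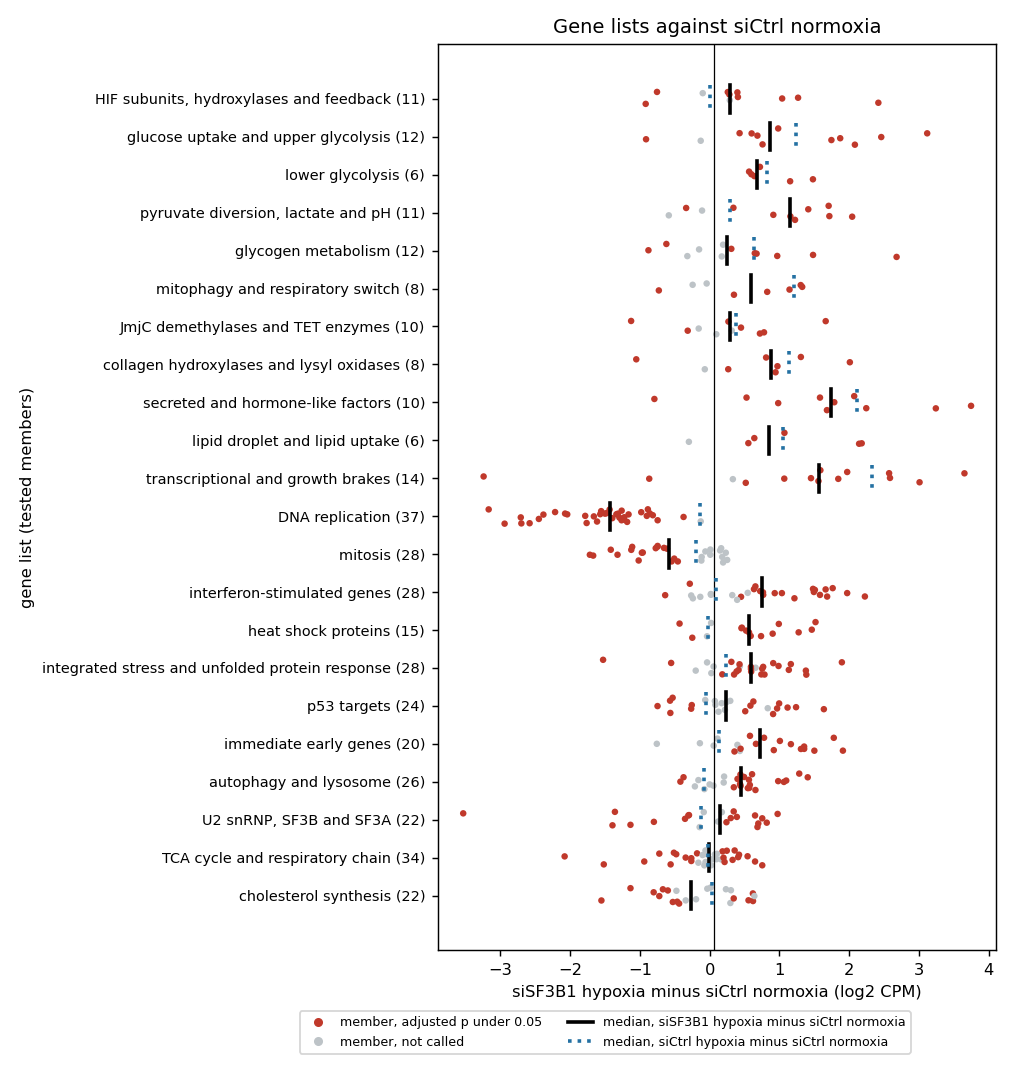
Log2 CPM difference of siSF3B1 hypoxic from siCtrl normoxic cells for each tested member of 11 hypoxia lists (top) and 11 other lists (bottom), with called members in red, the list's median as a black bar, the median of siCtrl hypoxia minus normoxia as a dotted blue bar and a vertical line at the median of all tested genes, 0.06. The medians of the hypoxia lists lie right of the line in both states, except that of HIF subunits, hydroxylases and feedback in siCtrl hypoxia (0.002). DNA replication has a median of -1.43 against -0.14, and interferon-stimulated genes of 0.74 against 0.09.

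In 5 lists of stress, immune and lysosomal genes the share called higher in siSF3B1 hypoxic cells was above the 34.1% of all tested genes, and the share called lower was under their 28.3%. These differences in share were not tested. Of 28 interferon-stimulated genes 18 were higher, 2 lower and 8 not called, with a median of 0.74, beside 0.09 in siCtrl hypoxia. OASL, an antiviral protein of the oligoadenylate synthetase family, had 4.94, 5.37 and 5.32 log2 CPM in siSF3B1 hypoxic, 2.94, 3.04 and 2.85 in siCtrl hypoxic and 3.49 and 2.99 in siCtrl normoxic cells. ISG15, a ubiquitin-like antiviral modifier, and IFI6 rose by 1.21 and 1.76 (adjusted p = 2.44e-05 and 1.99e-06). Of 15 heat shock genes 11 were higher, 2 lower and 2 not called, with a median of 0.56 (0.365 with quantile normalization). BAG3, a cochaperone, rose by 0.99 ± 0.073 and DNAJB1, with TECR on the other strand, by 0.90. HSPA1A and HSPA1B rose by 1.46 and 1.52, but they are near-identical copies whose reads can be split between them.

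Of 28 genes of the integrated stress and unfolded protein responses 20 were higher, 2 lower and 6 not called, with a median of 0.59 (0.38 without siSF3B1 hypoxic library 9) beside 0.23 in siCtrl hypoxia. HSPA5, the chaperone BiP, rose by 0.74 and EDEM1, of endoplasmic reticulum degradation, by 1.13. SHMT2, the mitochondrial serine enzyme of the same list, fell by 1.53, with NDUFA4L2 on the other strand. Of 20 immediate early genes 14 were higher and 6 not called, with a median of 0.72. MYC and FOSL2 were above both other groups, at 0.66 and 1.31 from normoxia against 0.36 and 0.84 in siCtrl hypoxia. Of 26 autophagy and lysosome genes 17 were higher, 2 lower and 7 not called, and their median was 0.44 (plain read totals gave 0.28). LAMP2, a lysosomal membrane protein, had 9.33, 9.45 and 9.36 log2 CPM in siSF3B1 hypoxic, 8.38, 8.38 and 8.26 in siCtrl hypoxic and 8.27 and 8.37 in siCtrl normoxic cells. ATP6V1A, a subunit of the proton pump that acidifies lysosomes, rose by 1.28 ± 0.080.

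Other lists had genes called in both directions, beside 34.1% of all tested genes higher and 28.3% lower. Among p53 targets 9 of 24 were higher, 6 lower and 9 not called, near those shares. GADD45A, a stress-induced growth arrest protein, rose to 6.62, 6.74 and 6.82 log2 CPM, against 5.25, 5.41 and 5.21 in siCtrl hypoxic and 5.47 and 5.51 in siCtrl normoxic cells, and SESN1 rose by 1.64. Respiratory chain and citrate cycle genes had 11 higher, 11 lower and 12 not called of 34, again near those shares. Their median was -0.01, and it was -0.18 with plain read totals, -0.14 with quantile normalization and 0.01 without siSF3B1 hypoxic library 6 or siCtrl normoxic library 1. UQCRC2, a core protein of complex III, fell by 2.08 and OGDH, of the citrate cycle, by 1.52, whereas MDH2, malate dehydrogenase, rose by 0.65. Cholesterol synthesis genes had 4 higher, 9 lower and 9 not called of 22, and LSS, lanosterol synthase, fell by 1.55. Among 22 genes of the U2 particle and its SF3B and SF3A partners 10 were higher, 8 lower and 4 not called, with a median of 0.15 that turned to -0.02 with plain read totals and -0.03 with quantile normalization. Beside SF3B1, DDX42, a helicase associated with SF3b, and SNRPA1 fell by 1.39 and 1.13, and SNRPB2 rose by 0.97. Exon overlap with another listed gene also leaves uncertain the values of SLC2A1, PFKM, BNIP3L, FAM162A, LOX, DEPP1, ARRDC3, BHLHE40, BHLHE41, SLC16A1, RNF24, ARL10, TSPEAR-AS2, DDX42 and ZNF587B. Of the 10 ductal markers 5 were higher, 1 lower and 4 not called, and their median was 0.43 (plain read totals gave 0.26 and quantile normalization 0.16). KRT19, a ductal keratin, rose by 0.97, and the 1 marker that fell was the keratin KRT7, by 1.28. The part of this marker shift in the other differences was not tested.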

How the data were processed

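Expression was deposited as log2 CPM per gene for 8 libraries, computed by the authors. Per the submitters' processing notes, the tools were Trimmomatic 0.35, STAR 2.7.0a, SAMtools 1.9, featureCounts of Subread 1.5.0 and edgeR 3.24.3, with build GRCh38.p13; roles and settings are not given in the sources used here. The values stepped as whole reads for 100.0% of entries (tolerance 0.01), with a prior count of 1.655 to 2.292 added per library, so differences of low genes are understated. Replicates differed beyond sampling noise (chi-square per degree of freedom 8.26 to 20.18 within groups).

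Genes with a mean above 0 log2 CPM were fitted with limma 3.58.1 in R 4.3.3 (lmFit, contrasts, eBayes with trend; 1 mean per group over all 8 libraries, 5 residual degrees of freedom), with two-sided tests and Benjamini-Hochberg adjustment over 13112 genes; the threshold was 0.05. The same fit gave the 3 contrasts, which share libraries. The fit and the main contrast were tested on simulated counts with genes changed in the siSF3B1 group only. The classes, the interval rules and the replicate block were not simulated. Exon overlaps come from GENCODE annotation, with 12920 genes matched.

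Members, classes and gene lists were chosen with earlier results of these data known, and p-values were adjusted over all tested genes. Named genes were SF3B1, HIF1A, EPAS1 and ARNT; the 10 highest and 10 lowest separate genes with a mean of at least 1 log2 CPM; the 6 of each class with the largest hypoxia difference; 8 new genes in each direction; members of the hypoxia lists; and up to 4 called genes of every other list by smallest p. A few genes are not reported here. Alternatives were other filters, plain read totals, quantile normalization, voom on recovered reads, a prior count of 0.5, a 5-library fit, each library left out, other intervals and sizes, and a replicate block.

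The library numbers in the titles run in sets of 3 (1 to 3, 4 to 6, 7 to 9) with at most 1 library of each group, and what the numbers stand for is not stated. Deviations from the group means correlated at 0.344 to 0.43 across genes in all 7 pairs of the same set. Such deviations cancel within a group, so the pairs do not count as separate checks. For example, siSF3B1 hypoxic library 3 correlated at 0.423 with siCtrl normoxic library 1 and at -0.423 with library 4. By this check the numbers were taken to pair the libraries. The counts, SE and adjusted p-values given come from the fit without the block unless stated, so they leave this pairing out. For named program genes the block fit is given where it changed the class. The counts called in the gene lists were made without the block. The siSF3B1 hypoxic and siCtrl normoxic groups share 2 of the sets. No normoxic library of the third set is among the libraries used here.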

Additional observations from a re-analysis of the deposited data

How the results depend on the processing

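Leaving out single libraries, called genes ranged from 3518 to 4443 higher and 2965 to 3714 lower, the program from 152 to 211 genes, persisting genes from 116 to 167, new higher genes from 199 to 319 and the median retained share from 62.8% to 71.9%. Genes back at normoxia ranged from 3 to 9 and new lower genes from 369 to 656, with the lowest of both without siCtrl normoxic library 1. With plain read totals 144 genes were new and higher, the retained share was 58.0%, the median of all genes was -0.11 and that of the U2 list -0.019 (quantile normalization -0.027). Leaving out single libraries, the median of the respiratory list ranged from -0.036 to 0.014, and it was -0.177 with plain read totals and -0.144 with quantile normalization. The width of the interval set the counts: within 0.3, 2 genes were back, 106 new and higher and 156 new and lower; within 0.75, 22, 442 and 856. From a size of 0.5 the program held 421 genes, 292 persisting and 30 back. With the replicate block 5009 genes were higher and 4106 lower, 216 formed the program and 167 persisted, 137 of them the same genes, 12 were back, and 338 were new and higher and 672 new and lower; of 75 named program genes 14 changed class, each given above, and the pairing changed no other class among them. Causes were not tested. Of the 75, 9 to 19 changed class when a single library was left out, 17 with plain read totals and 11 with quantile normalization.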
